A study of Mus musculus with 9 samples.

Results

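The Nlrp genes that mouse oocytes transcribe, other than Nlrp5, were examined in fully grown oocytes. The 10 genes were taken by symbol (Nlrp2, Nlrp4a, Nlrp4b, Nlrp4c, Nlrp4e, Nlrp4f, Nlrp9a, Nlrp9b, Nlrp9c and Nlrp14) out of 24228 genes with values, and all 10 had a row. RNA sequencing had been done on oocytes at the germinal vesicle stage, which are arrested in meiotic prophase. They came from large antral follicles of C57BL/6 females that had received 5 IU of PMSG, a gonadotropin that drives follicle growth, 46 h earlier. In the MG group Mtor was deleted in oocytes by Cre under the Gdf9 promoter, in the MZ group it was deleted by Cre under the Zp3 promoter, and the third group was wild type (WT). Each group had 3 libraries. Both Cre drivers are oocyte promoters, and that of Gdf9 becomes active in younger follicles than that of Zp3. The females' age is 23 days in the series design and 6 months in the sample labels. How many oocytes went into a library, whether the libraries came from separate females, and whether the WT females carried floxed alleles are not given in the sources used here.

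NLRP proteins carry a NACHT domain, which binds nucleotides, and a row of leucine-rich repeats. In immune cells several of them assemble inflammasomes that activate caspase-1. In the mouse the Nlrp4 and Nlrp9 genes multiplied by duplication, and most of the copies are transcribed chiefly in oocytes. There the products are stored for the first cleavages of the embryo, and Nlrp5 (also called Mater) is a core subunit of the subcortical maternal complex, a structure beneath the oocyte membrane. The Mtor product is a kinase that, in its complexes, links nutrients and growth factors to protein synthesis.

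The values are FPKM, fragments normalised to transcript length and to the size of the library. In a transcript of 1 kb, 1 fragment was worth between 1.32 FPKM in MG 3 and 2.36 FPKM in MZ 1, an estimate from the lowest listed values. The FPKM of a library summed to 498936 ± 64355 in MG, 670216 ± 10778 in MZ and 652537 ± 67110 in WT (SD, n = 3 each), and MG 3 had the lowest sum, 428329. Mtor itself had 5.29 ± 0.68 FPKM in MG, 5.21 ± 1.18 in MZ and 3.18 ± 0.20 in WT (SD, n = 3 each). A value for the whole gene includes exons outside the deleted part and does not check the deletion. The 12 oocyte markers summed to between 16428 and 32895 FPKM in MG, between 35132 and 37419 in MZ and between 29794 and 34949 in WT, and the lowest sum was again in MG 3. The 19 markers of granulosa and cumulus cells summed to between 26.5 and 47.5 FPKM in MG, between 24.0 and 28.3 in MZ and between 22.1 and 35.4 in WT, with Amhr2 and Foxl2 listed at 0 in all 9 libraries. The 10 leukocyte markers summed to between 38.7 and 185 FPKM in MG, between 33.5 and 194 in MZ and between 56.5 and 60.0 in WT. In RNA from whole oocytes, fewer contributing cells and less RNA per cell cannot be told apart.

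All 10 genes were above 0 in all 9 libraries and all passed the filter on low values. Their levels spread widely, and 4 places in the order never changed. Nlrp14, which mouse eggs need for development after fertilization, ranked first in every library and stood at place 31 of 24228 genes by its WT mean. It had 2448 ± 1194 FPKM in MG, 3127 ± 245 in MZ and 2737 ± 508 in WT (SD, n = 3 each). Nlrp4f, whose product associates with the subcortical maternal complex, ranked second in every library, with 485 ± 38.0 FPKM in MG, 759 ± 50.1 in MZ and 713 ± 123 in WT (SD, n = 3 each). Its lowest value, 442, lay above the highest value of any gene below it, 371 in Nlrp4b.

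The middle of the order was crowded. Nlrp4b, Nlrp9b, Nlrp4a and Nlrp9a had means over the 9 libraries of 247, 233, 211 and 204 FPKM, and these neighbours were not separated by the spread between libraries. Nlrp4b exceeded Nlrp9b in 5 of 9 libraries, Nlrp9b exceeded Nlrp4a in 7 and Nlrp4a exceeded Nlrp9a in 8. Nlrp2 and Nlrp9c formed the next pair, with means of 104 and 90.5 FPKM, and Nlrp2 was the higher of the pair in 8 of 9 libraries. Every value of Nlrp9a lay above every value of Nlrp2, and every value of Nlrp9c lay above every value of Nlrp4e. Nlrp4e, reported as needed for cleavage of the early mouse embryo, had a mean of 38.4 FPKM and was ninth in every library. Nlrp4c was the lowest of the 10 in every library, with a mean of 10.2 FPKM, and stood at place 5435 of 24228 by its WT mean.

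**Figure D1:**
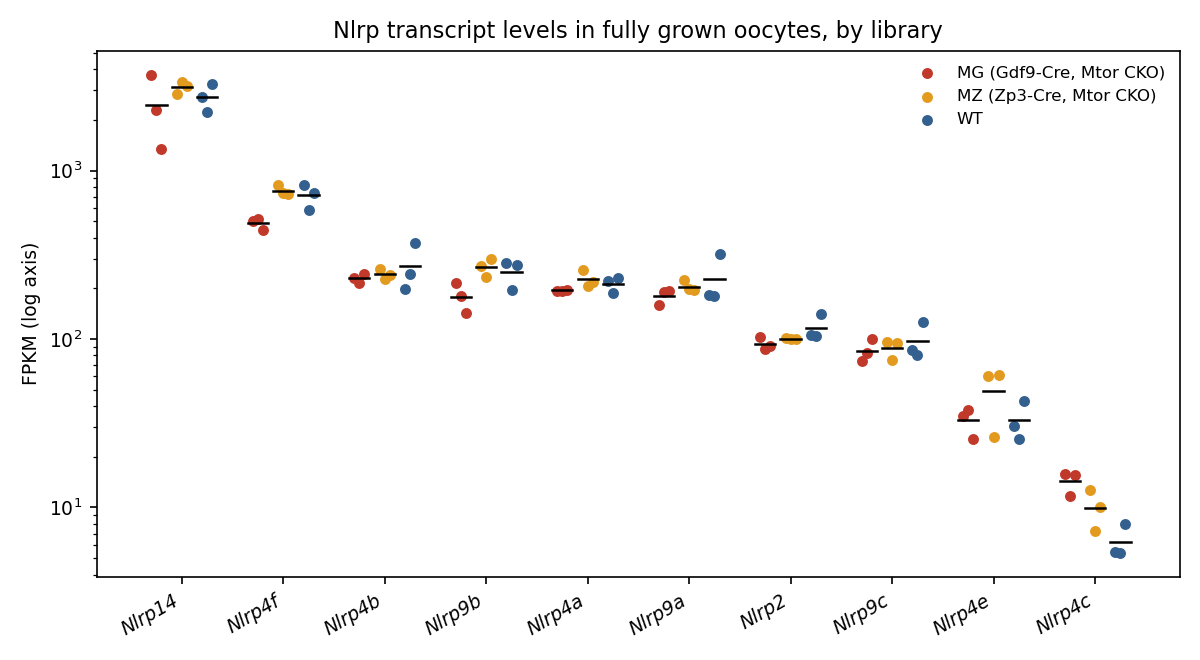
FPKM on a log axis for the 10 genes, 1 point for each library of MG, MZ and WT, with a bar at each group mean, in the order of the mean over 9 libraries. Nlrp14 lies at or above 1339 FPKM in every library and Nlrp4c at or below 15.7, and the MG points of Nlrp4f lie below its MZ and WT points.

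The genes are related by sequence, which bears on how reads are divided among them. Between their representative transcripts in GENCODE M21 (the longest of each gene), identity over the 45 pairs had a median of 56.3% and reached 87.1% for Nlrp4c with Nlrp4e. The Nlrp9 copies were next, with 85.1% for Nlrp9a with Nlrp9c, 83.1% for Nlrp9a with Nlrp9b and 80.6% for Nlrp9b with Nlrp9c. Nlrp4c with Nlrp4f had 78.2%. Nlrp2 and Nlrp14 stood at most at 57% with any other gene of the group. For Nlrp4e, 36.9% of the 50-base stretches of its transcript also occurred in a transcript of another gene, most often Gm16443 and Gm8486. At 100 bases the share was 11.5%. The 50-base shares were 11.9% in Nlrp4c, 7.08% in Nlrp4f, 6.54% in Nlrp9a, 6.22% in Nlrp9b, 4.99% in Nlrp9c, 3.04% in Nlrp4a and 0.835% in Nlrp2. They were 0 in Nlrp4b and Nlrp14. Reads were 150 bp in pairs, and shares at lengths above 100 bases were not computed. The values of Nlrp4e and Nlrp4c are uncertain to the extent that reads were shared.

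**Figure D2:**
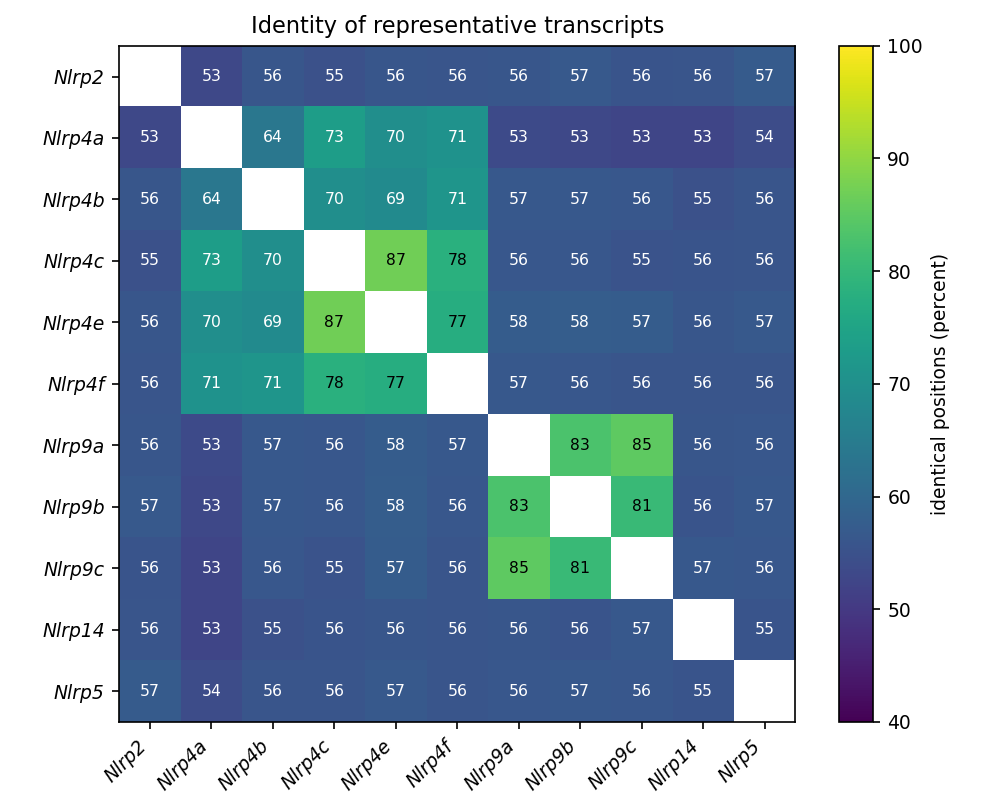
Percent of identical positions between the representative transcripts of the 10 genes and Nlrp5, shown by colour and as a rounded number in each cell. The Nlrp4 and the Nlrp9 copies form separate blocks, while Nlrp2, Nlrp14 and Nlrp5 lie near the median of 56.3% with every other gene.

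In the genome, 9 of the 10 genes lie on chromosome 7 and Nlrp4f lies on chromosome 13 (GENCODE M21, GRCm38). All 10 are annotated as protein coding. Nlrp9c (26322473 to 26403700, minus strand), Nlrp4a (26435113 to 26476142, plus strand) and Nlrp9a (26535023 to 26575615, plus strand) follow one another on chromosome 7. No other protein-coding gene that passed the filter on low values lies between them, and genes that failed it were not considered. By the same filter Nlrp4e (23301192 to 23362277, plus strand) is the neighbour of Nlrp5, at a distance of 23612 bp. The others lie apart, with Nlrp2 at 5298547 to 5351035 (minus), Nlrp4c at 6045161 to 6105150 (plus), Nlrp4b at 10687789 to 10730168 (plus), Nlrp9b at 19991465 to 20073306 (plus) and Nlrp14 at 107166990 to 107198102 (plus). Nlrp4f spans 65177111 to 65205977 on the minus strand of chromosome 13.

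The promoters of 5 genes are printed because these genes had the largest differences between groups (Nlrp4c, Nlrp4f and Nlrp9b) or share a promoter element with Nlrp4c (Nlrp4a and Nlrp4b). Each runs 5′ to 3′ on its gene's strand over 300 bases, 250 before the annotated start and 50 after it, from RefSeq on GRCm38.p6, where 9 of the 10 genes had an entry. They are chr7:6044911-6045210 (plus strand) for Nlrp4c, chr7:10687543-10687842 (plus strand) for the first of the starts of Nlrp4b, chr7:26435364-26435663 (plus strand) for the second start of Nlrp4a, chr13:65205667-65205966 (minus strand) for Nlrp4f and chr7:20007773-20008072 (plus strand) for Nlrp9b. The Nlrp4f window lies wholly inside the GENCODE M21 gene, whose start on the minus strand is 65205977. The deposited locus of Nlrp4f has its start within the window, at 65205716. Capitals mark matches, on either strand, to CANNTG (the E-box, which is bound by helix-loop-helix factors such as Figla), to TAATTG, to its variants TAGTTG and (palindromic) TAATTA (elements bound by the oocyte factor Nobox) or to TATAAA (the TATA box).
Nlrp4c: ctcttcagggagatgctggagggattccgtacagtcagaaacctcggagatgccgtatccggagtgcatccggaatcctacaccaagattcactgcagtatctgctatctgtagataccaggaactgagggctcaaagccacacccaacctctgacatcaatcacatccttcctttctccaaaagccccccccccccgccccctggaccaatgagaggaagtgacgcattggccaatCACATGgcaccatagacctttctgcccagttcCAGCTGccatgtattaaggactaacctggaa
Nlrp4b: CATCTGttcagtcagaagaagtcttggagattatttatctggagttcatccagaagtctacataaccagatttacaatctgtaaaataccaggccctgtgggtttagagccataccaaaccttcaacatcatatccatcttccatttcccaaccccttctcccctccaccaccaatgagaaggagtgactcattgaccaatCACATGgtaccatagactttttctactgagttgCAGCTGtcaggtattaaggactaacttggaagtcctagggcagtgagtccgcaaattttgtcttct
Nlrp4a: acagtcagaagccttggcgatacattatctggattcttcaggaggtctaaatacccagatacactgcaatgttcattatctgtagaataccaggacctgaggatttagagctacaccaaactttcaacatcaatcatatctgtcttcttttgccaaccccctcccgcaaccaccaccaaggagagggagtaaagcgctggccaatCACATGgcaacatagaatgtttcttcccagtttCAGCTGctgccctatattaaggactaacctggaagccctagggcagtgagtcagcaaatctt
Nlrp4f: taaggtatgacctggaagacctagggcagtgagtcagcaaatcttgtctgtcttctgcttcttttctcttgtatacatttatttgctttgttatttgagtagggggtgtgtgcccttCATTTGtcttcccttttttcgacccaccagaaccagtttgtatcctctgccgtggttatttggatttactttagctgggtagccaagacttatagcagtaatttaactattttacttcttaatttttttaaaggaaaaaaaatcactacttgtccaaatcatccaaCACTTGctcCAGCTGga
Nlrp9b: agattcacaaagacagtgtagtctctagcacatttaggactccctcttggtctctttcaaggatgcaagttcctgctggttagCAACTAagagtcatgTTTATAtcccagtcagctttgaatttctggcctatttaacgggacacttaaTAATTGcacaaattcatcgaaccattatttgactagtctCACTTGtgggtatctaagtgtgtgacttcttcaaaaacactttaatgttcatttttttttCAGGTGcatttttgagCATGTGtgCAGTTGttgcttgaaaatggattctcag

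Counting a gene once over its starts, a CANNTG match was present in 8 of the 9 genes with an entry, against 72.3% of all 32851 promoters in the table, and Nlrp2 had none in this window. TAATTG was found in Nlrp9a and Nlrp9b (8.0% of all promoters), TAGTTG in Nlrp9b (6.59%), TAATTA in Nlrp9a (5.29%) and TATAAA in Nlrp9b (13.6%). No capitals of one motif overlap those of another in the promoters printed above. In Nlrp4a, Nlrp4b and Nlrp4c the promoters held CACATG followed by CAGCTG, with starts 33, 33 and 32 bases apart. In all 3 the first of these lay within the 12 bases CCAATCACATGG, which occurred on either strand in 7 of the 32851 promoters (0.0213%), belonging to 6 genes. The other 3 genes were Dcxr, Oscp1 and Tmem52b. By themselves CACATG was found in 14.2% and CAGCTG in 16.3% of all promoters. This longer string was noticed on reading the sequences and was not among the 5 motifs searched first. The sequence before the GENCODE M21 start of Nlrp4f was not searched, so whether it holds the string is not known. The pairwise identity of the promoters had a median of 52.3% and reached 71.8% for Nlrp9a with Nlrp9c and 63.5% for Nlrp4b with Nlrp4c.

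The comparison of MG with WT shows the 10 genes in oocytes that lost Mtor early in growth. Nlrp4c was higher in every MG library than in any WT library. The means of the other genes were lower in MG, from 0.68 times the WT mean in Nlrp4f to 0.994 times in Nlrp4e. None of the 10 passed the test, in which limma compared log2(FPKM + 1) over 10801 genes with a Benjamini-Hochberg adjusted p under 0.05. That test called 0.343% of all genes. At an unadjusted p under 0.05 there were 3 of the 10 (Nlrp4c, Nlrp4f and Nlrp9b), against 17.7% of all genes. For 3 of the 10 the values of MG and WT did not overlap, against 21.5% of all genes. Of these Nlrp4c was higher in MG (11.6% of all genes) and Nlrp2 and Nlrp4f were lower (9.89%). A q under 0.05 in the authors' deposited table was found for 0 of the 10, against 4.13% of the genes tested here. The median log2 fold change of the 10 genes was -0.23, that of all tested genes was 0.04, and 8 of the 10 were negative, against 47% of all genes. In the same comparison the 12 oocyte markers had a median of -0.34, with 10 negative, and the 8 tested granulosa and cumulus markers had a median of 0.73, with 5 positive. Their part in the values of the 10 genes was not tested. These directions depend on scaling. With every library brought to the same FPKM sum the median of all genes moves to 0.36, and Nlrp2, Nlrp4a, Nlrp4b, Nlrp9a, Nlrp9c and Nlrp14 turn positive.

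Nlrp4c, a close paralog of Nlrp4e, had 15.7, 11.7 and 15.5 FPKM in MG 1 to MG 3. It had 5.44, 5.37 and 8.03 FPKM in WT 1 to WT 3. Each MG value exceeded each WT value. Its log2 fold change was 1.08 ± 0.30 (SE), or 2.11-fold, with a 95% interval on the log2 scale of 0.42 to 1.74 and a limma adjusted p of 0.12. About 24, 23 and 43 fragments lay behind the MG values, against 10, 9 and 12 behind the WT values, so each rests on few reads. The direction was positive under every alternative tried, with log2 fold changes between 0.78 and 1.44 and adjusted p between 0.072 and 0.27. The authors' deposited table lists a p of 1 for Nlrp4c in all 3 pairs of groups. Such a p can stand for a gene left untested, so it is not read as a result. Counts of the 10 genes by the authors' q may therefore include Nlrp4c without a test.

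Nlrp4f had 501, 513 and 442 FPKM in MG 1 to MG 3. In WT 1 to WT 3 it had 824, 582 and 734 FPKM. The groups did not overlap, and WT 2 lay nearest to the MG values. The log2 fold change was -0.54 ± 0.17 (SE), with a 95% interval of -0.93 to -0.16 and a limma adjusted p of 0.16. With the libraries scaled to the same FPKM sum it was -0.15, and with quantile normalization it was -0.04. Over all alternatives its adjusted p ranged between 0.11 and 0.93.

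Nlrp9b, which in the mouse intestine senses viral RNA through an inflammasome, had 214, 179 and 142 FPKM in MG 1 to MG 3. In WT 1 to WT 3 it had 284, 197 and 273 FPKM. MG 1 exceeded WT 2, so the groups overlapped. The log2 fold change was -0.49 (SE 0.21), with an adjusted p of 0.26 by limma, with a 95% interval of -0.96 to -0.03. Scaling to the same FPKM sum brought the log2 fold change to -0.10, and quantile normalization to -0.13.

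Nlrp2, a maternal-effect gene for preimplantation development, had 103, 87.1 and 91.3 FPKM in MG 1 to MG 3, against 105, 104 and 142 FPKM in WT 1 to WT 3. The groups did not overlap, but MG 1 and WT 2 were close to each other. The log2 fold change was -0.31 (SE 0.18), with an adjusted p of 0.40 by limma, and it was -0.16 without WT 3 and 0.08 with equal FPKM sums. The row of Nlrp2 shares its locus with the gene Gm5065, so reads could be divided between them. Gm5065 had 204 ± 42.2 FPKM in MG, 187 ± 46.3 in MZ and 284 ± 46.6 in WT (SD, n = 3 each).

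Nlrp14 was the most variable of the abundant genes in MG. It had 3713, 2292 and 1339 FPKM in MG 1 to MG 3, against 2729, 2233 and 3249 FPKM in WT 1 to WT 3. The MG values reached both above and below the WT range. The log2 fold change was -0.27 (SE 0.31), with an adjusted p of 0.71 by limma, and it was 0.11 without MG 3 and -0.63 without MG 1. MG 3 also had the lowest Gdf9 value, 7327 FPKM, and the lowest Zp3 value, 555 FPKM, of the 9 libraries. Their part in the Nlrp14 value was not tested.

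The remaining 5 genes had log2 fold changes between -0.28 and 0.00, with limma adjusted p between 0.57 and 1.0. Nlrp4a, one of the Nlrp4 copies, had 194, 194 and 195 FPKM in MG and 221, 187 and 229 in WT. Its MG libraries hardly varied and lay inside the WT range. Nlrp4b had 229.6, 216 and 243 FPKM in MG, against 198, 243 and 371 in WT. Nlrp9a had 159, 190.2 and 193 FPKM in MG, against 181, 181 and 318 in WT. Nlrp9c had 74.2, 82.2 and 99.5 FPKM in MG, against 86.1, 79.9 and 126 in WT. For Nlrp4b, Nlrp9a and Nlrp9c, as for Nlrp2, WT 3 held the highest of the 9 values, while the other 2 WT libraries were close to MG. Nlrp4e had 35.1, 38.1 and 25.4 FPKM in MG, against 30.4, 25.7 and 43.1 in WT, and the ranges largely coincided.

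**Figure D3:**
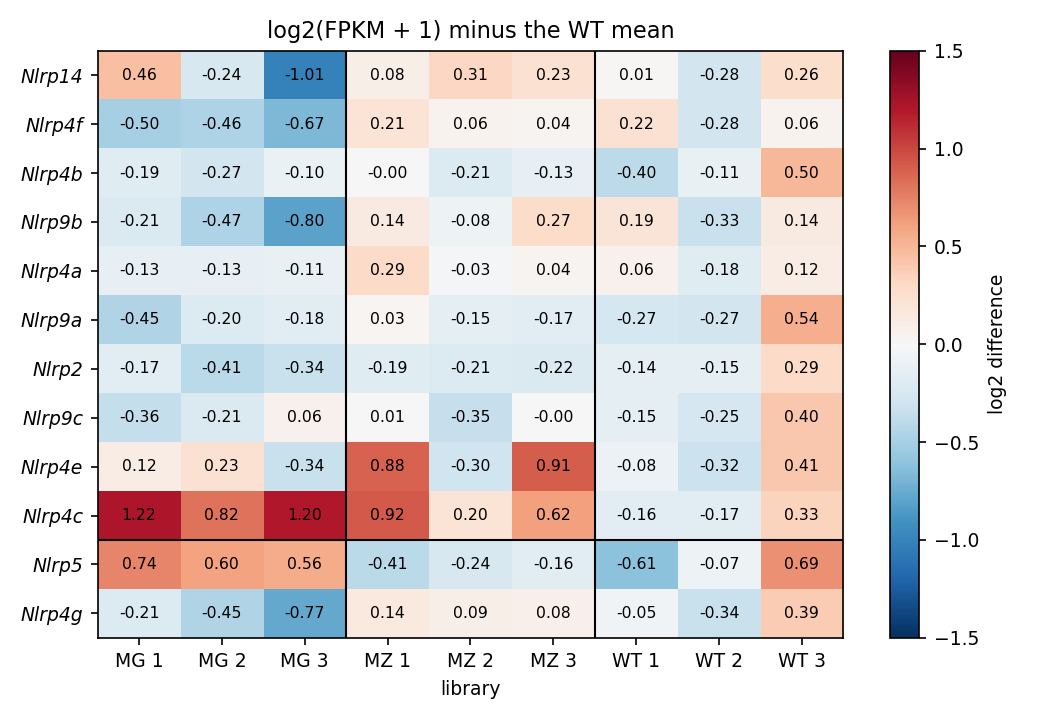
Difference of log2(FPKM + 1) from the WT mean for each gene and library, by colour and as a number, with Nlrp5 and Nlrp4g below the line for comparison. Nlrp4c is positive in all MG and MZ libraries, Nlrp4f is negative in all 3 MG libraries, and Nlrp4b, Nlrp9a, Nlrp2 and Nlrp9c are highest in WT 3.

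The comparison of MZ with WT shows the genes when Mtor was deleted later in oocyte growth. None of the 10 passed, with limma adjusted p between 0.79 and 0.96, against 0.037% of all genes called. At an unadjusted p under 0.05 there were 0 of the 10, against 6.3% of all genes, and 0 of the 10 had a q under 0.05 in the authors' deposited table, against 0.787%. One gene, Nlrp2, had values that did not overlap between the groups, against 12.2% of all genes, and 6.52% with MZ lower. The median log2 fold change of the 10 genes was 0.10, that of all tested genes was 0.01, and 4 of the 10 were negative, against 48.9% of all genes.

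Nlrp2 had 102, 100.02 and 99.5 FPKM in MZ 1 to MZ 3, below the WT values of 105, 104 and 142 FPKM. WT 1 and WT 2 were close to the MZ values and WT 3 stood apart. Its log2 fold change was -0.20 (SE 0.18), with an adjusted p of 0.89 by limma, and it was -0.06 without WT 3. Nlrp4c had 12.6, 7.28 and 10.03 FPKM in MZ 1 to MZ 3, against the WT values of 5.44, 5.37 and 8.03 FPKM. MZ 2 lay below WT 3, so the groups overlapped, and the log2 fold change was 0.58 (SE 0.30), with an adjusted p of 0.79 by limma. Nlrp4e was uneven within MZ, with 60.4, 26.1 and 61.5 FPKM, against 30.4, 25.7 and 43.1 FPKM in WT. MZ 1 and MZ 3 lay above all other libraries and MZ 2 lay among the lowest, and the log2 fold change was 0.50 (SE 0.34), with an adjusted p of 0.85 by limma. It was 0.30 without MZ 1, 0.89 without MZ 2 and 0.29 without MZ 3.

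The values of the abundant genes overlapped between MZ and WT. Nlrp14 had 2865, 3351 and 3165 FPKM in MZ, against 2729, 2233 and 3249 in WT, with a log2 fold change of 0.21 ± 0.31 (SE). Nlrp4f had 817, 735 and 726 FPKM in MZ, against 824, 582 and 734 in WT, with a log2 fold change of 0.10 and a 95% interval of -0.28 to 0.49. Nlrp9b had 273, 234 and 299.6 FPKM in MZ, against 284, 197 and 273 in WT, with a log2 fold change of 0.11 and a 95% interval of -0.36 to 0.57. Both intervals reach from a decrease to an increase. Nlrp4a had 258, 207 and 218 FPKM in MZ and Nlrp4b had 261, 226 and 239, and both overlapped WT. Nlrp9a had 223, 197 and 194 FPKM and Nlrp9c had 96.1, 74.8 and 95.2 FPKM in MZ, and both overlapped WT.

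The comparison of MG with MZ sets the earlier against the later deletion. Nlrp4f and Nlrp9b had lower values in all 3 MG libraries than in any MZ library, as did Nlrp4a and Nlrp9a by smaller margins. None of the 10 passed the limma test, against 0.13% of all genes. At an unadjusted p under 0.05 there were 2 (Nlrp4f and Nlrp9b), against 17.6% of all genes. The groups did not overlap for 4 of the 10, all lower in MG, against 25.2% of all genes in either direction and 12.3% lower. The median log2 fold change of the 10 genes was -0.20, that of all tested genes was 0.04, and 9 of the 10 were negative, against 46.7% of all genes. The oocyte markers had a median of -0.45 here, with 9 of 12 negative, and the granulosa and cumulus markers one of 0.48, with 6 of 8 positive. Scaling matters here too. With every library at the same FPKM sum the median of all genes moves to 0.39, and Nlrp2, Nlrp4a, Nlrp4b, Nlrp9a and Nlrp9c turn positive. MG is set against MZ and against WT with the same MG libraries, so these comparisons are not independent.

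Nlrp4f showed the smallest p of the 10 in this comparison. Its 501, 513 and 442 FPKM in MG stood against 817, 735 and 726 FPKM in MZ, with no overlap between the groups. The log2 fold change was -0.65 ± 0.17 (SE), or 0.639 times, with a 95% interval of -1.03 to -0.26 and a limma adjusted p of 0.097. Over the alternatives tried it stayed negative, between -0.69 and -0.10, with adjusted p between 0.066 and 0.75. Nlrp9b had 214, 179 and 142 FPKM in MG, against 273, 234 and 299.6 FPKM in MZ. The groups did not overlap in FPKM, with MG 1 and MZ 2 nearest to each other, but did as a share of the library's FPKM. The log2 fold change was -0.60 (SE 0.21), with an adjusted p of 0.17 by limma. For Nlrp9b it came to -0.17 with equal FPKM sums and -0.21 with quantile normalization, and adjusted p over the alternatives ranged between 0.11 and 0.59.

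Between MG and MZ, 3 of the 10 genes had a q under 0.05 in the authors' deposited table, against 9.05% of the genes tested here, and all 3 were lower in MG (6.21%). They were Nlrp9b (q = 0.014), Nlrp4f (q = 0.018) and Nlrp4e (q = 0.030). The authors' deposited table gives fold changes as MZ over MG, so a positive value means lower in MG, and lists 0.60 for Nlrp9b, 0.66 for Nlrp4f and 0.60 for Nlrp4e on the log2 scale. For Nlrp4e the MG values of 35.1, 38.1 and 25.4 FPKM overlapped the MZ values of 60.4, 26.1 and 61.5, and the limma adjusted p was 0.49. Nlrp4c, with 15.7, 11.7 and 15.5 FPKM in MG against 12.6, 7.28 and 10.03 in MZ, had a log2 fold change of 0.50 (SE 0.30), which was 0.31 without MZ 2, and an adjusted p of 0.42 by limma. It was the 1 gene of the 10 with a positive value in this comparison. Nlrp14 had a log2 fold change of -0.47 (SE 0.31) and an adjusted p of 0.47 by limma. The fold change was -0.10 without MG 3 and -0.83 without MG 1, and it turned to 0.27 with quantile normalization.

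**Figure D4:**
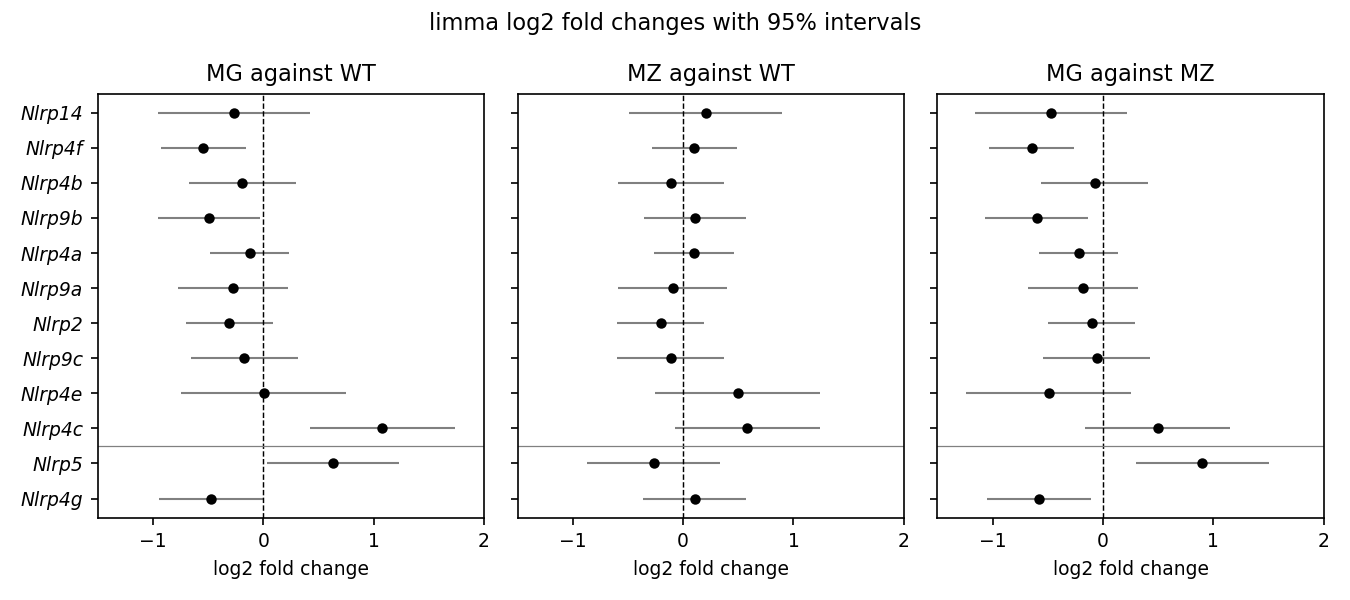
limma log2 fold changes with 95% intervals for the 10 genes, and for Nlrp5 and Nlrp4g below the line, for each pair of groups, MG against WT at the left, MZ against WT in the middle and MG against MZ at the right. The intervals of Nlrp4f and Nlrp9b lie below 0 in the comparisons that hold MG, that of Nlrp4c lies above 0 in MG against WT, and no gene of the 10 passed after adjustment over 10801 genes.

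Summed over the 10 genes, the libraries held 5237, 3804 and 2787 FPKM in MG, 4968, 5159 and 5108 in MZ, and 4665, 3837 and 5493 in WT. MG varied most, with a mean of 3943 ± 1231, against 5079 ± 99.0 in MZ and 4665 ± 828 in WT (SD, n = 3 each). As a share of a library's FPKM, the sums were 0.778 ± 0.151% in MG, 0.758 ± 0.022% in MZ and 0.715 ± 0.108% in WT (SD, n = 3 each), and these ranges overlapped. Nlrp14 gave more than any other of the 10 to each sum, with 70.9%, 60.3% and 48.1% in MG, 57.7%, 64.9% and 62.0% in MZ, and 58.5%, 58.2% and 59.1% in WT. Its share was nearly constant in WT and spread widely in MG. Without Nlrp14 the other 9 genes summed to 1495 ± 41.2 FPKM in MG, 1952 ± 147 in MZ and 1928 ± 320 in WT (SD, n = 3 each). As a share of a library's FPKM these 9 genes had 0.302 ± 0.032% in MG, 0.291 ± 0.022% in MZ and 0.296 ± 0.041% in WT (SD, n = 3 each), values closer to each other than the spread within any group.

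Within those 9 genes the make-up can be read without regard to the scale of a library. Nlrp4f made up 32.8%, 34.0% and 30.5% in MG, 38.9%, 40.6% and 37.4% in MZ, and 42.6%, 36.3% and 32.7% in WT. Its MG shares lay below all MZ shares, and MG 1 and MG 2 lay within the WT range. Nlrp4c made up 1.03%, 0.771% and 1.07% in MG, 0.601%, 0.402% and 0.516% in MZ, and 0.281%, 0.335% and 0.358% in WT. These 3 groups did not overlap, but each value rests on few fragments. Nlrp4a also had higher shares in every MG library (12.7%, 12.8% and 13.5%) than in any MZ or WT library. Nlrp2 and Nlrp4b did so against MZ, while Nlrp4e, Nlrp9a, Nlrp9b and Nlrp9c overlapped between MG and MZ. The shares add up to a fixed whole, so a lower share of Nlrp4f raises those of the others. Such overlaps were not counted over all genes. The ratio of Nlrp4c to Nlrp4f was 0.0297 ± 0.0063 in MG, 0.0131 ± 0.0029 in MZ and 0.0089 ± 0.0022 in WT (SD, n = 3 each). This ratio, and the ratio to Nlrp5 given next, were chosen after the values were seen and carry no test.

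**Figure D5:**
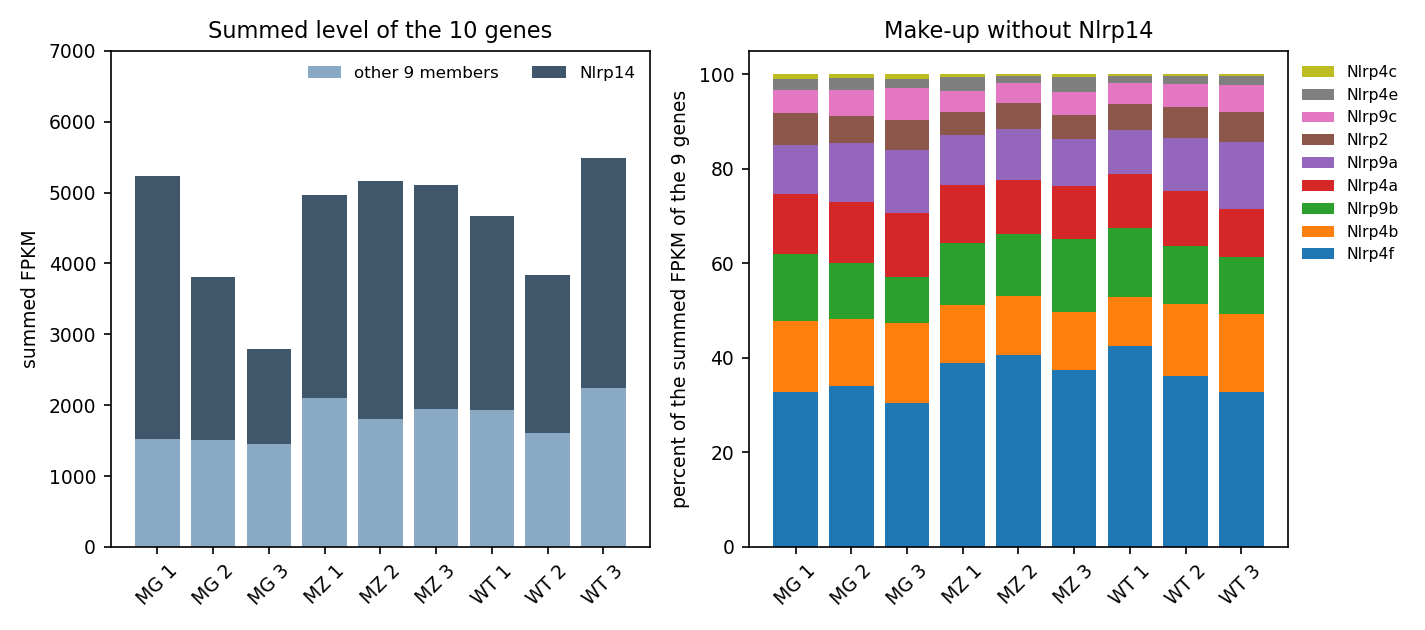
Left, the summed FPKM of the 10 genes in each library, split into Nlrp14 and the other 9 genes, and right, the percent of the 9 genes' sum held by each. Nlrp14 makes up between 48.1% (MG 3) and 70.9% (MG 1) of the sum, and the Nlrp4c band at the top is thickest in the MG libraries.

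Nlrp5, next to Nlrp4e on chromosome 7, had 1068, 974 and 944 FPKM in MG, 483, 542 and 574 in MZ, and 418, 608 and 1033 in WT, and it did not pass in any comparison by limma (adjusted p = 0.26 for MG against WT, 0.90 for MZ against WT and 0.12 for MG against MZ). The authors' deposited table gives Nlrp5 a q of 0.0031 between MG and MZ, higher in MG. The ratio of Nlrp5 to Nlrp4f was 2.13, 1.90 and 2.13 in MG, 0.592, 0.738 and 0.791 in MZ and 0.507, 1.05 and 1.41 in WT. The ratio was higher in every MG library than in any other library. Nlrp4g, annotated as a transcribed pseudogene and sharing stretches with Nlrp4f, had 365 ± 70.5 FPKM in MG, 540 ± 13.1 in MZ and 513 ± 131 in WT (SD, n = 3 each). Its adjusted p for MG against MZ was 0.19 by limma, and its q in the authors' deposited table was 0.024, lower in MG.

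The profiles of the genes across the 9 libraries were compared. Correlated with the mean profile of the other members on the log2(FPKM + 1) scale, Pearson's r was highest for Nlrp4a (0.78), followed by Nlrp9a (0.73) and Nlrp9b (0.68), was 0.42 for Nlrp14 and was -0.19 for Nlrp4c. These are descriptions over 9 libraries that share a scale within each library, and carry no test. Among the 6107 other tested genes with a mean of at least 5 FPKM, the profiles most like the mean of the 10 were those of Gm6792 (r = 0.89), D5Ertd577e (r = 0.89), Dhx32 (r = 0.87), Nlrp4g (r = 0.87) and Fbxl2 (r = 0.86).

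Neighbours were sought only among protein-coding genes that passed the filter on low values, so silent genes were left out. Beside Nlrp4c, Nlrp4b, Nlrp14 and the run of Nlrp9c, Nlrp4a and Nlrp9a, the nearest of these on either side had group means below 8 FPKM. Gm5065 beside Nlrp2 and Nlrp5 beside Nlrp4e, both given above, were higher. Ceacam20, 361 bp from the GENCODE M21 start of Nlrp9b (19991465), had 25.3 ± 9.65 FPKM in MG, 40.3 ± 4.63 in MZ and 37.1 ± 6.07 in WT (SD, n = 3 each). The deposited locus of Nlrp9b starts further on, at 20008021, where the printed promoter also lies. Nlrp9b itself had 178 ± 35.9 FPKM in MG, 269 ± 32.7 in MZ and 251 ± 47.5 in WT (SD, n = 3 each). Cdk20, at 735338 bp the nearest protein-coding gene to Nlrp4f among those that passed the filter, had 245 ± 120 FPKM in MG, 457 ± 22.6 in MZ and 446 ± 79.8 in WT (SD, n = 3 each).

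Among other receptors of the NLR superfamily, Nlrp5 and Nlrp4g lay in the range of the 10 genes, with means over the 9 libraries of 738 and 473 FPKM, and Naip1 was next with 21.8. Of 21 with a row 5 passed the filter on low values (Nlrp5, Nlrp4g, Naip1, Nlrc4 and Nod2), none passed the test in any comparison, and Nlrp1b, Nlrp1c-ps, Nlrp10, Nlrc3 and Nlrc5 were listed at 0 in all 9 libraries. Of 17 genes of the inflammasome machinery 7 were tested and none passed, and Casp4, Il1b, Il18, Aim2 and Mefv were listed at 0 throughout. Pycard, the adaptor that links NLRP proteins to caspase-1, had means of 0.21 FPKM in MG, 0.60 in MZ and 0.36 in WT. Casp1 had 0.44 FPKM in MG, 0.45 in MZ and 0.54 in WT. Txnip, a thioredoxin-binding protein, was the most abundant of that list, with 332 ± 113 FPKM in MG, 1018 ± 187 in MZ and 585 ± 430 in WT (SD, n = 3 each).

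The 6 genes of the subcortical maternal complex were all tested and none passed. On the log2 scale their median fold change came to -0.46 in MG against WT, 0.44 in MZ against WT and -0.96 in MG against MZ. The most abundant were Zbed3, with 7980 ± 4932 FPKM in MG, 18392 ± 1172 in MZ and 14619 ± 5485 in WT, and Khdc3, with 959 ± 291 in MG, 946 ± 104 in MZ and 1051 ± 85.6 in WT (SD, n = 3 each). Of 6 reported partners of NLRP proteins 3 were tested and none passed. Uhrf1, a regulator of DNA methylation reported to be stabilised by NLRP14 in mouse oocytes, had 156 ± 66.0 FPKM in MG, 175 ± 18.1 in MZ and 136 ± 32.3 in WT (SD, n = 3 each). Of 10 oocyte transcription factors 9 were tested and none passed. Nobox had 359.9 ± 151 FPKM in MG, 408 ± 23.1 in MZ and 395 ± 73.9 in WT, and Lhx8 had 138 ± 31.0 in MG, 172 ± 15.1 in MZ and 150.04 ± 53.2 in WT (SD, n = 3 each). Of the 12 oocyte markers, the 8 tested granulosa and cumulus markers and the 7 tested leukocyte markers, none passed.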

How the data were processed

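RNA of 9 libraries (3 each of MG, MZ and WT) was amplified by Smart-seq2, per the labels' protocols. Per the series design and the submitters' processing notes, the authors' FPKM come from 150 bp paired reads that were trimmed, mapped on mm10 by TopHat2 2.0.13 and quantified by Cufflinks 2.2.1. Beside them, the authors deposited 3 Cuffdiff results per pair of groups, namely a log2 fold change, a p-value and a q-value. The sources used here do not say how strand was treated. Of 24255 rows, 27 were dropped because their symbols had become dates.

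A count model does not suit FPKM, and none was used. Genes of at least 1 FPKM in at least 3 libraries (10801, all 10 members among them) were taken as log2(FPKM + 1), a scale that understates changes of low genes, and analysed by limma 3.58.1 under R 4.3.3 (variance trend, all 9 libraries in 1 fit). Tests were two-sided and p-values were adjusted by Benjamini-Hochberg over all tested genes within a comparison. Nothing says that the libraries came from separate females, so p-values measure the spread between libraries, which may be technical. Fragment numbers are approximate, taken from steps between low FPKM values of 1893 genes with 1 transcript, and cover counting error only. Transcript identity was computed with edlib 1.3.9.post1.

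All 10 members are named, with Nlrp5, Mtor, Gdf9 and Zp3. From each list of related genes up to 2 were named, the most abundant over the 9 libraries, since none passed. Casp1, Pycard, Nlrp4g and the genes listed at 0 or tested in short lists were added after their values were seen. The 5 genes most like the family's mean profile were named. Neighbours were the nearest protein-coding genes on each side that passed the filter on low values. The members and lists were chosen with earlier results of these data known. On simulated data for MG against WT with 10520 genes, 48 of 100 genes changed 4-fold and 1 of 100 changed 2-fold were called. The spread between simulated libraries was set beforehand and not estimated from these libraries. The settings varied were the scaling, the filter, the pseudocount, the variance trend, a replicate block, and which libraries entered.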

Additional observations from a re-analysis of the deposited data

Results flagged for a closer look

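Between MG and MZ, 3 genes of the family have a q under 0.05 in the authors' deposited table. These are Nlrp9b (q = 0.0143), Nlrp4f (q = 0.0176) and Nlrp4e (q = 0.0297), each lower in MG. The limma test called none of the 3 in the same comparison, with adjusted p of 0.17 for Nlrp9b, 0.097 for Nlrp4f and 0.49 for Nlrp4e. The FPKM of Nlrp9b and Nlrp4f did not overlap between MG and MZ, and those of Nlrp4e did. As a share of the library's FPKM, Nlrp9b had 0.0386%, 0.0349% and 0.0332% in MG 1 to MG 3. In MZ 1 to MZ 3 it had 0.0403%, 0.0347% and 0.0455%, so its shares overlapped. Those of Nlrp4f did not, with at most 0.103% in MG and at least 0.109% in MZ. How many of all genes fail to overlap on this scale was not counted. With equal FPKM sums the log2 fold change of Nlrp4f was -0.21, with a limma adjusted p of 0.36. Why the outcomes of the tests differ was not tested.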

How the results depend on the processing

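No member passed under any alternative, and 533 of 570 recomputed fold changes kept their sign. The signs that turned without a library being left out came from 2 scalings. For MG against WT, quantile normalization gave log2 fold changes of 0.28 for Nlrp4a, 0.24 for Nlrp4b, 0.10 for Nlrp9a, 0.047 for Nlrp9c and 0.33 for Nlrp14, and equal FPKM sums gave 0.080 for Nlrp2, 0.27 for Nlrp4a, 0.20 for Nlrp4b, 0.11 for Nlrp9a, 0.22 for Nlrp9c and 0.12 for Nlrp14. For MG against MZ, quantile normalization gave 0.13 for Nlrp2, 0.17 for Nlrp4a, 0.36 for Nlrp4b, 0.20 for Nlrp9a, 0.16 for Nlrp9c and 0.27 for Nlrp14, and equal FPKM sums gave 0.33, 0.21, 0.36, 0.25 and 0.37 for Nlrp2, Nlrp4a, Nlrp4b, Nlrp9a and Nlrp9c. Nlrp4c and, in the comparisons with MG, Nlrp4f and Nlrp9b kept their sign under every alternative. So did Nlrp4e in MG against MZ, and Nlrp2, Nlrp4a, Nlrp4e and Nlrp14 in MZ against WT. Leaving out each library in turn gave ranges that crossed 0 for MG against WT in Nlrp4e (-0.16 to 0.21), Nlrp4b (-0.39 to 0.064), Nlrp9c (-0.30 to 0.029) and Nlrp14 (-0.63 to 0.11). It did so for MZ against WT in Nlrp9c (-0.24 to 0.086), Nlrp4f (-0.037 to 0.21), Nlrp9b (-0.057 to 0.21), Nlrp4b (-0.31 to 0.14) and Nlrp9a (-0.23 to 0.17), and for MG against MZ in Nlrp9c (-0.17 to 0.037).

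The count of all genes called was 37 for MG against WT (20 higher, 17 lower). It was 17 with no filter, 21 with quantile normalization, 66 with equal FPKM sums (61 higher, 5 lower), 13 with the replicate block, 5 with the 6 libraries compared, and 3 to 24 with 1 library left out. For MZ against WT it was 4, and 2 with a pseudocount of 0.1, 2 with no filter, 0 with a filter at 5 FPKM, 1 with quantile normalization, 1 with equal FPKM sums, 7 without the variance trend, 0 with the replicate block, and 0 to 6 with 1 library left out. For MG against MZ it was 14, and 6 with a pseudocount of 0.1, 30 with one of 5, 9 with no filter, 31 with equal FPKM sums, 9 without the variance trend, 159 with the replicate block, 73 with the 6 libraries compared, and 0 to 214 with 1 library left out. The replicate block called 0 of the 10 members in each comparison. The sources used here do not say whether same-numbered libraries were paired, and their deviations correlated between -0.070 and 0.073. With 3 libraries a group, such correlations cannot show that pairing was absent. As a share of the library's FPKM the family sum in MZ was 0.758%. The causes of these shifts were not tested. Nlrp4c rests on few fragments. In simulated data for MG against WT, with a spread that was set and not fitted to these libraries, 1 of 100 changes of 2-fold was called. That count does not measure how likely a change of Nlrp4c was to be called.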
